A study of Mus musculus with 4 samples.

Results

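The cytosolic ribosomal protein genes encode the proteins of the large (60S, Rpl) and small (40S, Rps) subunits of the ribosome that translates nuclear mRNAs. They were taken as all genes of the liver table whose symbol has the form of a ribosomal protein name, with a total of at least 40 counts over the 4 libraries, which gave 79 of 25655 genes. Of these, 48 were large subunit genes and 31 were small subunit genes, and 76 were standard subunits while 3 (Rpl7l1, Rpl22l1 and Rps27l) were paralogs of a standard subunit. All 79 passed the filter on low counts, which kept 12967 genes. A further 3 genes matched the name pattern but fell under the count minimum and were not tested, namely Rpl10l with 0 counts, Rpl3l with 3 and Rpl39l with 4. The name pattern and the count minimum used no measured difference between the genotypes. They were set with earlier results of these data known.

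Liver polyA RNA was sequenced from male mice of 2 genotypes, ADAR2+/+/GluR-B R/R (HFD-WT) and ADAR2-/-/GluR-B R/R (HFD-KO), with 2 libraries per genotype. Both groups carried the edited GluR-B R/R allele, came from heterozygous intercrosses on a B6129S background and ate a high-fat diet (HFD) for 12 weeks, starting at 5 weeks of age. The deletion was present in the whole animal, so the liver was not the only organ without ADAR2, an enzyme that edits adenosine to inosine in RNA. Neither the labels nor the methods tie a library to 1 mouse or to several, so the p-values below measure only the spread between libraries.

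A ribosome holds each of its proteins once, apart from the stalk proteins, and hepatocytes use a large pool of ribosomes to secrete plasma proteins. Ribosomal protein mRNAs are abundant and short, and most of them begin with a cytosine followed by a run of pyrimidines, the 5′ terminal oligopyrimidine (TOP) tract. mTORC1 and the RNA-binding protein LARP1 act through this tract on translation, which the level of an mRNA does not report.

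The sequence around the start site was read from RefSeq promoters (GRCm38.p6) for the 59 of 79 genes that had an entry, while the other 20 are named or counted only. Runs of C or T letters were kept if they ended between 25 bases before the annotated start and the end of the window, 50 bases after it. Each was counted over its whole length. Such a run of at least 8 letters was present in 47 of 59 genes (79.7%), against 33.1% of all 27025 genes with a promoter. The median longest run was 10 bases in the ribosomal protein genes and 6 over all genes. The letters CCGGAAG, searched on both strands of the 300-base window, were present in 24 of 59 genes (40.7%). They were present in 9.93% of all 27025 genes with a promoter. The reverse complement of these letters, CTTCCGG, can overlap the end of a pyrimidine run. These are matches of letters and not mapped binding sites. The genes below are shown because they had the smallest p-values between the genotypes (Rpl13a, Rpl35a, Rps18, Rpl27), the longest run (Rpl7a), a well-known tract and signalling role (Rps6), or form a pair of paralog and parent (Rps27 and Rps27l, Rpl22 and Rpl22l1) or a paralog alone (Rpl7l1). Each is written 5′ to 3′ on the gene's strand, with the longest of the runs kept in capitals. Runs that ended further upstream, as in Rpl7l1, stayed in lower case.
Rpl13a, chr7:45128722-45128751, minus strand: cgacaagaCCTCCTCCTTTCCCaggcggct
Rpl35a, chr16:33056468-33056497, plus strand: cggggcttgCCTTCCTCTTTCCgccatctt
Rps18, chr17:33955648-33955677, minus strand: gtcacttccgCTCTCTCTTCCacaggaggc
Rpl27, chr11:101442225-101442254, plus strand: ccggaacgctctgTTCCTgtctgctgctcg
Rpl7a, chr2:26910788-26910817, plus strand: cacaaTTCCCTCTTCTTTCTTTCTCCagca
Rps6, chr4:86857349-86857378, minus strand: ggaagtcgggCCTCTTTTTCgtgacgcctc
Rps27, chr3:90213632-90213661, minus strand: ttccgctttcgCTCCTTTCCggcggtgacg
Rps27l, chr9:66946053-66946082, plus strand: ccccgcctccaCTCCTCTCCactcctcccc
Rpl22, chr4:152324413-152324442, plus strand: aatatcagcgctgCTTCTggaatgttccag
Rpl22l1, chr3:28805499-28805528, plus strand: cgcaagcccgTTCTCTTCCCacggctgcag
Rpl7l1, chr17:46782664-46782693, minus strand: gcgggcctctctaCCCCgcccggtgaggct

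The run was 21 bases long in Rpl7a and 14 in Rpl13a, while Rpl27, Rpl22 and Rpl7l1 had no run of 8 in this window. Between the genotypes, the 47 genes with a run had a median log2 fold change of 0.09 and the 12 without had one of 0.09, and 44 and 11 of them respectively had a value above 0.

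Library totals were between 24480798 and 28691330 counts, and each of the 79 genes had between 227 and 15228 counts in every library. CPM below are counts per 1000000 on a library size scaled by the trimmed mean of M-values (TMM), which assumes that most genes do not differ. Adarb1, the gene of ADAR2, had 15.7 and 19.8 CPM in the HFD-WT libraries and 6.23 and 9.55 CPM in the HFD-KO libraries, which matched the labels (log2 fold change -1.17 ± 0.20 SE, adjusted p = 0.159 by edgeR's quasi-likelihood test). Over the 79 genes, the chi-square divided by its degrees of freedom was 6.46 between the HFD-WT libraries and 11.3 between the HFD-KO libraries, so replicates varied beyond counting error. Hepatocyte markers took 10.6% to 12.5% of the counts of a library, and all 12 of them were detected. In bulk liver, fewer cells of a type and less RNA per cell cannot be told apart.

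As a family, ribosomal protein mRNAs were slightly higher in HFD-KO than in HFD-WT liver, and 1 of the 2 HFD-KO libraries held most of the difference. The 79 genes took 1.291% (95% exact binomial interval 1.287 to 1.295) and 1.294% (1.290 to 1.298) of all counts in the HFD-WT libraries, and 1.298% (1.294 to 1.303) and 1.387% (1.382 to 1.391) in the HFD-KO libraries. These intervals cover counting error only. By share of the library total, the interval of HFD-KO replicate 1 overlapped those of both HFD-WT libraries. Its value of 1.29826% was above both of their upper limits (1.29498% and 1.29817%), the second only just. HFD-KO replicate 2 was well above all 3 others. Outside the 10 genes with the most counts, only HFD-KO replicate 2 was higher. The shares there were 1.5524% and 1.5531% in HFD-WT and 1.5522% and 1.6878% in HFD-KO, so HFD-KO replicate 1 was the lowest by a small margin. The summed level after TMM scaling was 12789 and 12657 CPM in HFD-WT (12723 ± 93.0 SD, n = 2) and 13089 and 14213 CPM in HFD-KO (13651 ± 795 SD, n = 2). On this scale HFD-KO replicate 1 was 2.88% and HFD-KO replicate 2 was 11.7% above the HFD-WT mean, and the groups did not overlap. With 2 libraries against 2, an exact permutation test cannot give a p below 0.33, so no test was made of this sum.

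**Figure D1:**
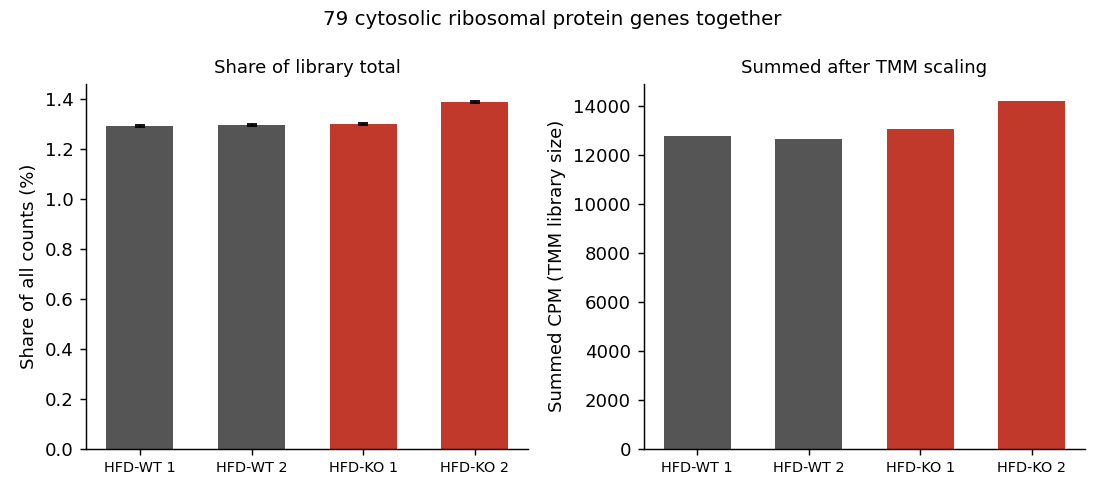
Left, share of all counts of a library taken by the 79 ribosomal protein genes (%, bars from 0, error bars 95% exact binomial intervals); right, their summed CPM on the TMM library size. HFD-WT libraries are grey and HFD-KO libraries red: the share is 1.291%, 1.294% and 1.298% in the first 3 bars, and 1.387% in HFD-KO replicate 2.

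Gene by gene, 74 of 79 genes had a log2 fold change above 0 (HFD-KO against HFD-WT), where 51.6% of all genes tested did. The median was 0.09, which is 6.76% higher, beside a median of 0.01 over all genes tested. The 2 subunits had nearly the same median, 0.0938 for the large and 0.0947 for the small subunit. Single differences were small: 4 genes had a log2 fold change over 0.2, 33 were between 0.1 and 0.2, 37 were between 0 and 0.1, and the interquartile range of the family was 0.06 to 0.14. The median standard error was 0.08, about as large as the median difference. Members of the family share their libraries, so their number is not a number of replicates.

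No ribosomal protein gene passed the adjusted threshold of 0.05 (edgeR's quasi-likelihood test, Benjamini-Hochberg over all genes tested, adjusted p from 0.507 to 0.998), where 0.0771% of all genes tested did. DESeq2 called 0 of the 79 as well, beside 0.887% of all genes. The unadjusted threshold of 0.05 was passed by 5 genes with higher values in HFD-KO (6.33%, beside 4.25% of all genes) and by 0 with lower values (beside 4.73%), and by DESeq2 the higher count was 3 (beside 2.3%). The 95% intervals of the log2 fold change reached at most 0.57, and no lower than -0.31 apart from Rpl22l1, the least abundant of the 79, at -0.59. The plot of fold changes gives these intervals for every gene.

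**Figure D2:**
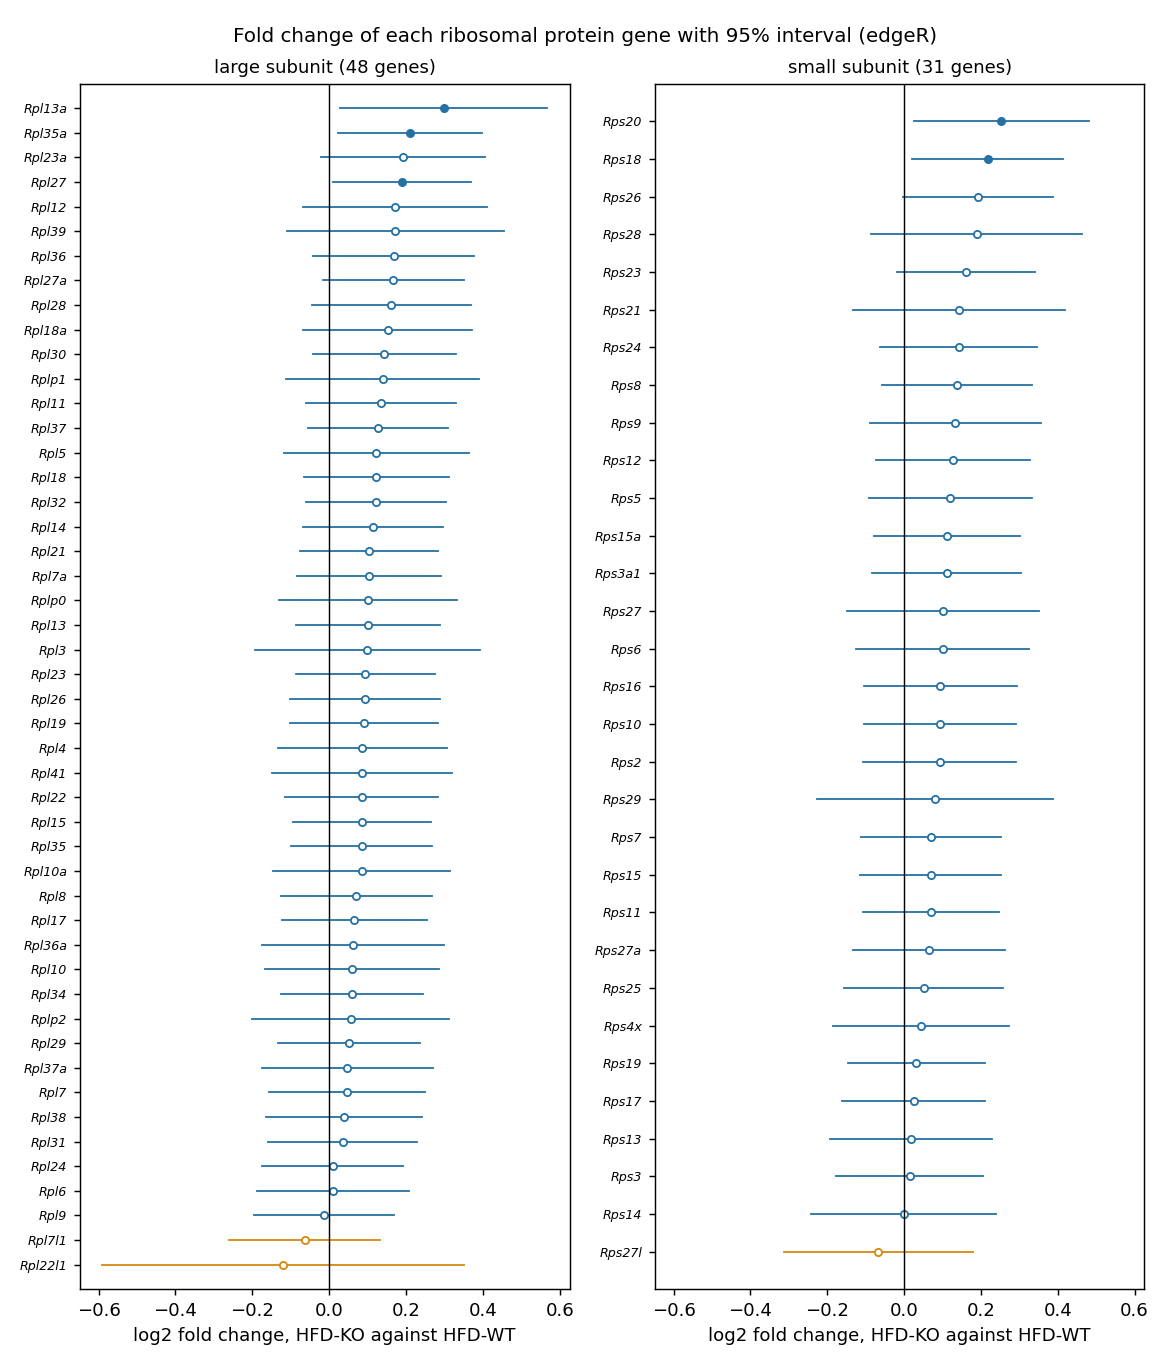
Log2 fold change of each gene, HFD-KO against HFD-WT, with its 95% interval from edgeR (points and horizontal lines), for the 48 large subunit genes on the left and the 31 small subunit genes on the right. Filled points mark the 5 genes with an unadjusted p under 0.05, and the 3 paralogs, in orange, lie to the left of 0.

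Read as order alone, both HFD-KO libraries were above both HFD-WT libraries for 44 of 79 genes (55.7%, beside 20.5% of all genes tested), and both were below for 0 (beside 20.3%). The 2 HFD-KO libraries contributed unequally. HFD-KO replicate 2 was above both HFD-WT libraries for 71 of 79 genes (beside 38.6% of all genes) and was the highest of the 4 for 64. HFD-KO replicate 1 was above both HFD-WT libraries for 45 of 79 (beside 36.4%) and was the highest for 8. The median difference from the HFD-WT mean was 0.05 (log2) in HFD-KO replicate 1 and 0.16 in HFD-KO replicate 2.

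**Figure D3:**
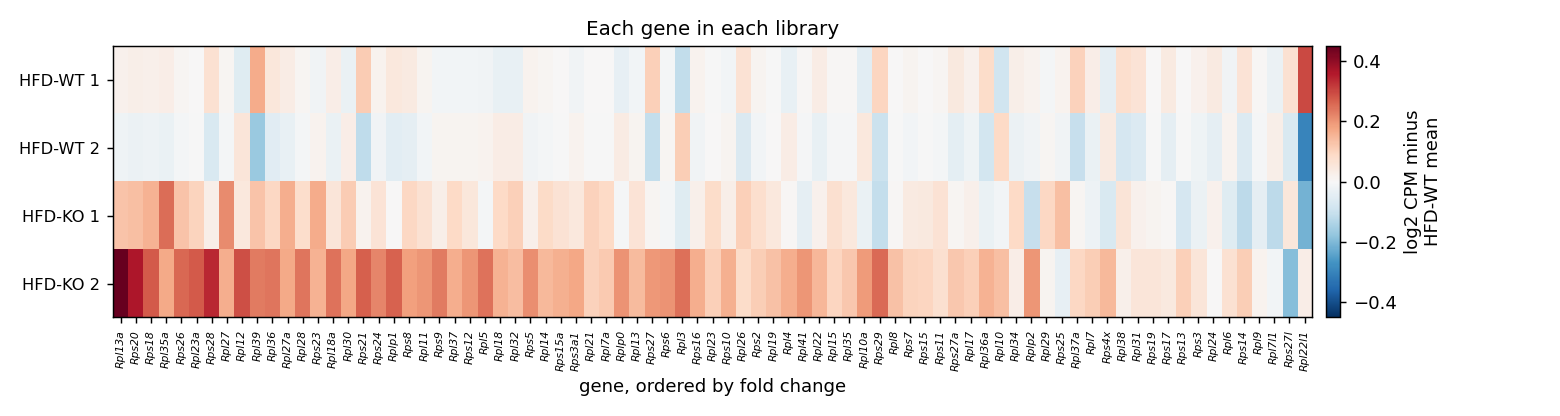
Log2 CPM of each of the 79 genes (columns, ordered by fold change) minus the mean of the HFD-WT libraries, in each library (rows), with red above and blue below 0. The row of HFD-KO replicate 2 is red in most columns, with a median of 0.16, and that of HFD-KO replicate 1 is paler, with a median of 0.05.

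The size of the family's difference rested largely on HFD-KO replicate 2, and the count of genes past the unadjusted threshold moved with every library left out. Without that library, the median log2 fold change was 0.05, 59 of 79 genes were above 0 (beside 49.9% of all genes) and 2 had higher values at an unadjusted p under 0.05 (beside 5.77%). Without HFD-KO replicate 1, the median was 0.16, 75 were above 0 (beside 50.1%) and 24 had higher values at an unadjusted p under 0.05 (beside 8.25%). In that fit 3 had higher values at an adjusted p under 0.05 by edgeR, beside 2.83% of all genes, namely Rpl13a (log2 fold change 0.45, adjusted p = 0.0017), Rps20 (0.36, adjusted p = 0.016) and Rps28 (0.34, adjusted p = 0.039), the last of which was picked after its value was seen. Leaving out HFD-WT replicate 1 or 2 left 72 and 66 genes above 0 (beside 51.3% and 51.4%), with 1 and 0 at an unadjusted p under 0.05 (beside 2.85% and 1.92%). Scaled by the library total alone, 64 of 79 were above 0 (beside 40.5% of all genes), 0 had an unadjusted p under 0.05 (beside 2.67%), and 31 did not overlap in the higher direction (beside 13.8%). That scaling moved the median of the family to 0.05 and that of all genes to -0.04.

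Other measures of the liver also set HFD-KO replicate 2 apart. Its 12 hepatocyte markers took 12.5% of counts, beside 10.8% and 11.02% in the HFD-WT libraries and 10.6% in HFD-KO replicate 1. Gene by gene, 9 of these 12 were above 0 (75%, beside 51.6% of all genes) and 3 below, with a median log2 fold change of 0.04. At an unadjusted p under 0.05 by edgeR, 1 was higher (8.33%, beside 4.25% of all genes). Their median difference from the HFD-WT mean was 0.09 in HFD-KO replicate 2 and 0.03 in HFD-KO replicate 1. In HFD-KO replicate 2 the 13 mitochondrially encoded mRNAs took 5.80%, beside 7.09% and 6.93% in HFD-WT and 7.71% in HFD-KO replicate 1. The part of these shifts in the level of ribosomal protein mRNAs was not tested. Erythroid markers took 0.0765% and 0.0615% in HFD-WT and 0.0804% and 0.112% in HFD-KO, without overlap. The 6 tested all had higher values, 3 with an unadjusted p under 0.05 (50%, beside 4.25% of all genes). Both HFD-KO libraries were below both HFD-WT libraries in the macrophage markers, at 0.0504% and 0.0446% of counts, beside 0.0602% and 0.0764%, and in the stellate cell markers, at 0.0361% and 0.0280%, beside 0.0421% and 0.0479%. Of 15 macrophage markers 14 were lower, 10 of them at an unadjusted p under 0.05 (66.7%, beside 4.73% of all genes). Of 10 stellate markers 7 were lower, 5 at an unadjusted p under 0.05 (50%, beside 4.73%). B and plasma cell markers were at 0.0150% and 0.0207% in HFD-WT and at 0.0274% and 0.0111% in HFD-KO, a sum that overlapped and in which Cd74, named here after its values were seen, made up most (127.1 and 183.9 CPM in HFD-WT against 145.6 and 83.9 in HFD-KO). Of these 12 markers 11 were higher, 5 at an unadjusted p under 0.05 (41.7%, beside 4.25% of all genes). Their median log2 fold change was 1.56, with a median difference from the HFD-WT mean of 1.27 in HFD-KO replicate 1 and 0.13 in replicate 2. As a sum, endothelial markers (0.0442% and 0.0499% in HFD-WT, 0.0421% and 0.0420% in HFD-KO) were lower in both HFD-KO libraries. Gene by gene they were split, with 5 above 0 and 7 below and a median log2 fold change of -0.03. The sum of the cholangiocyte markers was also lower (0.00723% and 0.00926%, then 0.00591% and 0.00489%), but Spp1 made up most of it. Spp1 had 64.3 and 83.9 CPM in HFD-WT and 53.8 and 42.8 CPM in HFD-KO. Of the 5 cholangiocyte markers tested, 4 were below 0 and 1 above. T and NK cell markers overlapped, all at 0.00108% or less. Every listed marker of these cell types had more than 3 counts in all. Their part in the family's difference was not tested either.

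Among the large subunit genes, Rpl13a had the largest difference. Rpl13a encodes a 60S protein that also takes part in interferon-dependent translational silencing, its introns host box C/D small nucleolar RNAs, and its mRNA is a frequent reference in quantitative PCR. The gene lies on chromosome 7, 44774982 to 44778185, minus strand (GRCm39, the build of the table's positions). It had 239.6 and 233.9 CPM in HFD-WT and 259.0 and 323.3 CPM in HFD-KO. Both HFD-KO libraries were above both HFD-WT libraries, with replicate 2 far above replicate 1. The log2 fold change was 0.30 ± 0.12 (SE), with an unadjusted p of 0.034 and an adjusted p of 0.510 by edgeR.

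Rpl35a, a 60S protein mutated in some families with Diamond-Blackfan anaemia, had 107.9 and 103.8 CPM in HFD-WT and 125.8 and 119.0 CPM in HFD-KO (chromosome 16, 32876823 to 32880559, plus strand). Here HFD-KO replicate 1 was the higher of the pair, and the groups did not overlap (log2 fold change 0.21, unadjusted p = 0.032, adjusted p = 0.507 by edgeR). Rpl27, another 60S protein (chromosome 11, 101333124 to 101336355, plus strand), had 99.0 and 97.8 CPM in HFD-WT and 114.0 and 110.3 CPM in HFD-KO. Its 2 libraries per group lay close together, and its log2 fold change of 0.19 had an adjusted p of 0.529 by edgeR. Leaving out any 1 library kept the log2 fold change between 0.17 and 0.25 for Rpl35a and between 0.17 and 0.21 for Rpl27, whereas that of Rpl13a ran from 0.13 to 0.45.

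Among the small subunit genes, Rps20, a 40S protein with germline variants in familial colorectal cancer, had 138.4 and 133.6 CPM in HFD-WT and 149.3 and 175.0 CPM in HFD-KO (chromosome 4, 3831334 to 3835665, minus strand). Rps18, a 40S head protein and a common reference gene, had 183.5 and 177.9 CPM in HFD-WT and 201.5 and 218.9 CPM in HFD-KO (chromosome 17, 34170973 to 34174975, minus strand). In both genes HFD-KO replicate 2 was the highest library and the groups did not overlap, with log2 fold changes of 0.25 and 0.22 and an adjusted p of 0.509 each by edgeR. Rps26, a 40S protein at the mRNA exit channel, had 92.5 and 91.3 CPM in HFD-WT and 100.4 and 109.8 CPM in HFD-KO, and its log2 fold change of 0.19 just missed the unadjusted threshold (adjusted p = 0.557 by edgeR).

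The 5 genes with a log2 fold change below 0 were the 3 paralogs and 2 standard subunits. Rpl9, a 60S protein, had 181.1 and 179.7 CPM in HFD-WT and 175.5 and 182.2 CPM in HFD-KO, and Rps14, a 40S protein lost in the 5q- syndrome, had 190.9 and 175.0 CPM in HFD-WT and 168.3 and 197.5 CPM in HFD-KO. In both genes the HFD-KO libraries lay on either side of the HFD-WT libraries, and the log2 fold changes of -0.01 and -0.0008 were far within their standard errors of 0.08 and 0.10.

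The stalk of the 60S subunit, which recruits translation factors, is built by Rplp0, Rplp1 and Rplp2. Rplp0, also a reference gene, had 331.1 and 348.0 CPM in HFD-WT and 338.4 and 390.6 CPM in HFD-KO. Rplp1 had 244.3 and 228.4 CPM in HFD-WT and 236.5 and 284.1 CPM in HFD-KO, and Rplp2 had 89.9 and 87.9 CPM in HFD-WT and 82.8 and 102.1 CPM in HFD-KO. In all 3 genes HFD-KO replicate 1 was below at least 1 HFD-WT library and replicate 2 was the highest, so the log2 fold changes of 0.10, 0.14 and 0.06 rested on that library, and without it they were -0.01, near 0 and -0.10.

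Rpl5 and Rpl11 form the 5S ribonucleoprotein, which binds Mdm2 and stabilises p53 when ribosome assembly fails. Rpl5 had 228.1 and 232.9 CPM in HFD-WT and 228.8 and 273.3 CPM in HFD-KO, so the groups overlapped (log2 fold change 0.12 ± 0.10 SE). Rpl11 had 160.1 and 157.7 CPM in HFD-WT and 166.7 and 182.2 CPM in HFD-KO, so they did not (0.14 ± 0.08 SE, adjusted p = 0.683 by edgeR). Rps6, the 40S protein that S6 kinase phosphorylates downstream of mTORC1, had 259.7 and 263.4 CPM in HFD-WT and 259.8 and 301.1 CPM in HFD-KO. Its value in HFD-KO replicate 1 was between the 2 HFD-WT values, and its log2 fold change was 0.10 ± 0.10 (SE).

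The other genes with roles beyond the ribosome, or with roles in the translation of selected mRNAs, gave log2 fold changes of 0.01 to 0.08. These were 0.07 for Rps27a, which is made as a fusion with ubiquitin, 0.01 for Rps3, which also acts in DNA repair, and 0.03 for Rps19, the gene most often mutated in Diamond-Blackfan anaemia. They were 0.08 for Rpl10a, 0.05 for Rps25, which many viral internal ribosome entry sites need, and 0.04 for Rpl38, which Hox mRNAs need in the embryo. Rps3 and Rps19 were below 0 under scaling by library total alone (-0.03 and -0.01), as was Rpl38 (-0.01).

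Per kilobase of exon, the genes spanned a wide range of levels although the ribosome holds most of these proteins in equal number. The highest mean levels were those of Rplp1 with 460.1 CPM per kilobase, Rpl23a with 416.7 and Rps2 with 380.7, and the lowest were those of Rps15a with 9.07, Rpl22l1 with 14.6 and Rpl7l1 with 14.8. The highest and the lowest differed by a factor of 50.7, while the interquartile range of the family was 98.8 to 179.8 CPM per kilobase. The exon length, which the authors' RPKM implies, was 6489 bases for Rps15a against a family median of 1092, the longest of the 79, which lowers its value on this scale. Rps15a, a 40S protein, had 56.6 and 56.5 CPM in HFD-WT and 59.1 and 63.2 CPM in HFD-KO, not far from the others before division by length. Reads of these genes can also match their processed pseudogenes. The 7 pseudogenes with a ribosomal protein name ending in -ps held 22663 counts, outside the family's counts and equal to 1.62% of them. Pseudogenes under other names were not counted. Of the 22663 counts, 22495 were on Rpl10-ps3, more than the 14508 of Rpl10 itself. The log2 fold change was 0.05 for Rpl10-ps3 and 0.06 for Rpl10. The part of the Rpl10-ps3 counts that came from Rpl10 was not tested.

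Levels kept nearly the same order in every library: across the 79 genes, which are not independent of each other, Pearson's r between any 2 libraries on the log2 CPM scale was 0.991 to 0.995. The fold change did not follow exon length within the family (Spearman's rho -0.08 across 79 genes) or across all genes tested (0.02). Among genes with at least 30 CPM in HFD-WT, 28 ribosomal protein genes of at least 500 and under 1000 bases had a median log2 fold change of 0.10, beside 0.01 for 117 other genes of that length. From 1000 to under 2000 bases the medians were 0.09 for 32 ribosomal protein genes and 0.01 for 589 others, and from 2000 to under 4000 bases 0.08 for 13 and -0.005 for 1484.

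The 3 expressed paralogs had log2 fold changes below 0, each within its standard error. Rpl7l1, a nucleolar relative of Rpl7, had 50.9 and 52.7 CPM in HFD-WT and 47.7 and 51.3 CPM in HFD-KO (log2 fold change -0.06 ± 0.08 SE). Rps27l, a p53 target closely related to Rps27, had 97.9 and 88.9 CPM in HFD-WT and 96.6 and 81.8 CPM in HFD-KO (-0.07 ± 0.10 SE). Rpl22l1, which can replace Rpl22 in the ribosome, had 12.4 and 8.25 CPM in HFD-WT and 8.74 and 10.3 CPM in HFD-KO (-0.12 ± 0.20 SE). In all 3 the groups overlapped, and leaving out 1 library turned the sign of Rps27l (0.05 without HFD-KO replicate 2) and of Rpl22l1 (0.20 without HFD-WT replicate 1).

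The level of a paralog relative to its parent, per kilobase, differed widely between the 3 pairs. Rpl7l1 stood at 0.083 and 0.090 of Rpl7 in HFD-WT and at 0.081 and 0.079 in HFD-KO. Rpl22l1 stood at 0.448 and 0.311 of Rpl22 in HFD-WT and at 0.318 and 0.344 in HFD-KO. Rps27l was about as abundant as Rps27, at 1.16 and 1.22 in HFD-WT and 1.23 and 0.912 in HFD-KO, and the lowest ratio was that of HFD-KO replicate 2. Both HFD-KO ratios of Rpl7l1 were below both HFD-WT ratios by a small margin, and the other 2 pairs overlapped. The parents themselves had log2 fold changes of 0.05 (Rpl7), 0.08 (Rpl22) and 0.10 (Rps27), none past the unadjusted threshold. Of the parents of the paralogs at 4 counts or fewer, Rpl3 had a value of 0.10, Rpl10 of 0.06 and Rpl39 of 0.17. Rpl10 had fewer counts than its pseudogene Rpl10-ps3.

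**Figure D4:**
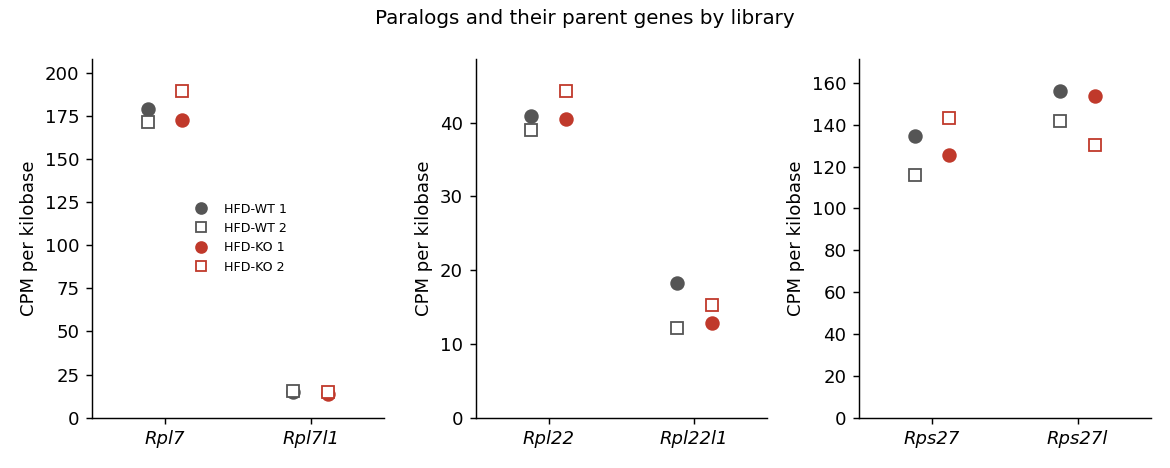
CPM per kilobase of exon of each paralog and its parent gene in each library (circles replicate 1, squares replicate 2, grey HFD-WT, red HFD-KO, axes from 0). Rpl7l1 lies far below Rpl7, with a ratio of 0.079 to 0.090, and Rps27l is level with Rps27, with a ratio of 0.912 to 1.23.

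Subunits and partners that the name pattern does not catch also had log2 fold changes above 0. Rpsa, a 40S protein also known as laminin receptor, had a log2 fold change of 0.09, and Fau, whose product is cut to a 40S protein, had 0.14. Rpl36al, a copy of Rpl36a, had 81.8 and 83.9 CPM in HFD-WT and 101.6 and 88.3 CPM in HFD-KO (0.20), and Rack1, a 40S-associated scaffold of signalling proteins, had 211.7 and 225.4 CPM in HFD-WT and 226.5 and 257.9 CPM in HFD-KO (0.15). All 4 were above 0, only Rpl36al and Rack1 did not overlap between the groups, and none had an unadjusted p under 0.05.

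Mitochondrial ribosomal proteins, which build the separate ribosome of the organelle, had a median log2 fold change of 0.01, near that of all genes. Of 78 genes 45 were above 0 (57.7%, beside 51.6% of all genes), and 22 did not overlap in the higher (28.2%, beside 20.5%) and 7 in the lower direction (8.97%, beside 20.3%). At an unadjusted p under 0.05, 2 were higher (2.56%, beside 4.25%) and 0 lower, and none passed the adjusted threshold. The 2 were Mrpl38 (47.5 and 46.7 CPM in HFD-WT, 56.5 and 55.0 in HFD-KO, log2 fold change 0.24) and Mrpl52 (24.5 and 24.8 CPM in HFD-WT, 29.97 and 28.1 in HFD-KO, 0.24), both proteins of the large mitochondrial subunit. Nuclear genes of oxidative phosphorylation had 49 of 71 values below 0 and a median of -0.02, with 17 not overlapping in the lower direction (23.9%, beside 20.3% of all genes) and 5 in the higher (7.04%, beside 20.5%).

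The cytosolic translation factors had 33 of 50 genes above 0 (66%, beside 51.6% of all genes) and a median of 0.04. Eif4b, an initiation factor that stimulates the helicase eIF4A and is itself a TOP mRNA and S6 kinase target, had 247.7 and 287.7 CPM in HFD-WT and 309.2 and 350.4 CPM in HFD-KO (log2 fold change 0.30, unadjusted p = 0.026, adjusted p = 0.480 by edgeR). Eif4g3, an initiation scaffold, had 74.0 and 78.2 CPM in HFD-WT and 67.5 and 63.9 CPM in HFD-KO (-0.21, adjusted p = 0.511). The groups did not overlap in either gene, and these were the 2 of 50 with an unadjusted p under 0.05. That is 2% in each direction, below the 4.25% higher and 4.73% lower of all genes. Among other mRNAs described as TOP mRNAs, 17 of 24 listed genes were in the table, with 12 above 0 (70.6%, beside 51.6%) and a median of 0.04. Only 1 (Eif4b again) had an unadjusted p under 0.05 (5.88%, beside 4.25%).

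Genes that make the ribosome were split in direction. Of 95 ribosome assembly factors, RNA polymerase I subunits and processing factors, 44 were above 0 and 51 below, with a median of -0.02, and 11 did not overlap in the higher (11.6%, beside 20.5% of all genes) and 20 in the lower direction (21.1%, beside 20.3%). Polr1a, the largest subunit of RNA polymerase I, had 27.8 and 28.0 CPM in HFD-WT and 21.7 and 22.7 CPM in HFD-KO. Both HFD-KO libraries were below both HFD-WT libraries, with a log2 fold change of -0.33 ± 0.08 (SE), an unadjusted p of 0.0043 and an adjusted p of 0.293 by edgeR, and this was the 1 gene of the list at an unadjusted p under 0.05 (1.05%, beside 4.73% of all genes in the lower direction). Of 25 genes of the mTORC1 pathway, 11 were above 0 and 14 below, with a median of -0.02. Of them, 5 did not overlap in the higher (20%, beside 20.5% of all genes) and 11 in the lower direction (44%, beside 20.3%). Akt1s1, which encodes the mTORC1 inhibitor PRAS40, had 39.99 and 43.5 CPM in HFD-WT and 48.5 and 51.5 CPM in HFD-KO (0.26, adjusted p = 0.451 by edgeR), and Mtor, the kinase, had 81.8 and 78.0 CPM in HFD-WT and 71.4 and 70.5 CPM in HFD-KO (-0.17, adjusted p = 0.585). Both were without overlap, in opposite directions. None of these lists had a gene past the adjusted threshold.

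**Figure D5:**
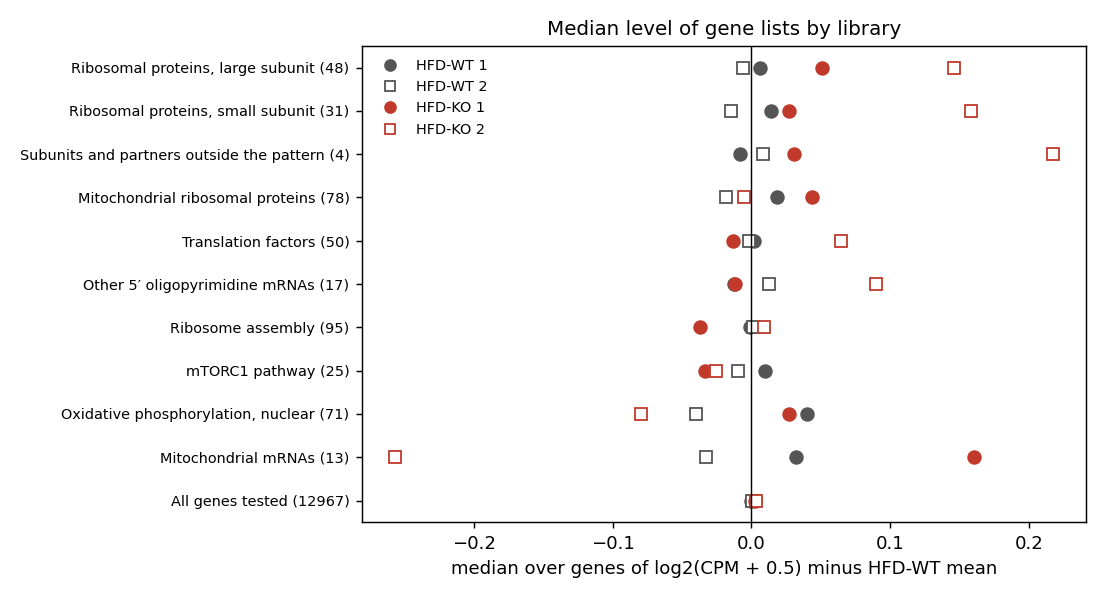
Median over the genes of each list (number tested in brackets) of log2(CPM + 0.5) minus the HFD-WT mean, by library (circles replicate 1, squares replicate 2, grey HFD-WT, red HFD-KO). The ribosomal protein subunits lie to the right in both HFD-KO libraries, further in replicate 2 (0.15 and 0.16 for large and small) than in replicate 1 (0.05 and 0.03), whereas mitochondrial mRNAs lie at 0.16 in replicate 1 and -0.26 in replicate 2.

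The differences between lists were not tested, since genes of a list share the same 4 libraries. The plot of list medians shows that the translation factors and the other TOP mRNAs were, like the ribosomal proteins, highest in HFD-KO replicate 2 (0.06 and 0.09), while in HFD-KO replicate 1 they were at -0.01 each.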

How the data were processed

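The authors extracted liver RNA with TRIzol, made directional libraries, sequenced paired ends on a DNBSEQ-G400RS, aligned the reads to mm10 with a tool from MGI Tech, and quantified genes with GENCODE annotation in Partek Genomics Suite. Versions, strand use and the handling of reads that match several places are not given in the sources used here. The submitters' processing notes name GRCm39 and mm10, and the table's positions are those of GRCm39. The authors' deposited counts are whole numbers without normalization and were the only values tested. The deposited RPKM served to derive exon lengths. The deposited TPM and the deposited CPM, a score on an adjusted library size, were not used.

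The test across genes was run with edgeR 4.0.16 under R 4.3.3 (filterByExpr by genotype, TMM, glmQLFit and glmQLFTest, two-sided, Benjamini-Hochberg over 12967 genes, no replicate block). The common biological coefficient of variation was 0.102. A 3-count floor was 0.104 to 0.126 CPM. Alternatives used DESeq2 1.42.0, its size factors, the library total alone, no filter, a replicate block and each library left out in turn. The procedure was tested on simulated data. Summaries and plots used Python 3.11.15, pandas 2.3.3, numpy 2.4.6 and matplotlib 3.10.9.

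Genes were named by a rule: in each direction the 6 with the smallest unadjusted p, the 3 highest and 3 lowest per kilobase, paralogs and their parents, genes with roles beyond the ribosome, subunits outside the name pattern, and up to 2 genes per direction of each other list. Of these last, only some are named, and 1 result is not reported here. The members and lists were chosen with earlier results of these data known.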

Additional observations from a re-analysis of the deposited data

How the results depend on the processing

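The family's median stayed above 0 under every alternative, from 0.047 without HFD-KO replicate 2 (0.048 under scaling by library total) to 0.16 without HFD-KO replicate 1. The count at an unadjusted p under 0.05 in the higher direction went from 5 to 3 with DESeq2, to 0 with library totals, and to 0 to 24 with 1 library left out; at an adjusted p it was 0 to 3 with 1 library left out. Both HFD-KO values lay below both HFD-WT values for 2 of the 79 genes under library totals (beside 27.7% of all genes). With 1 library left out, an alternative chosen after seeing the data, 45 to 71 genes did not overlap in the higher (beside 31.9% to 38.6% of all genes) and 1 to 10 in the lower direction (beside 31.8% to 37.7%). The cause of these shifts was not tested.

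With the replicate number as a block, the count at an unadjusted p under 0.05 was 3. Same-numbered libraries did not deviate together (r = -0.08 across genes), so the numbers were not treated as a pairing. Adarb1 had -1.17 with DESeq2 (adjusted p = 0.00042 by its Wald test). By edgeR it had -1.18 without the filter (adjusted p = 0.0025) and -1.19 with the replicate block (adjusted p = 0.040). Also by edgeR, it had -1.18 with DESeq2 size factors (adjusted p = 0.165) and -1.22 with library totals (adjusted p = 0.139). With 1 library left out it had -1.51 to -0.89.

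With library totals, the sign turned for Rpl7 (-0.0011), Rps4x (-0.0042), Rpl38 (-0.0073), Rps19 (-0.014) and Rps3 (-0.032).

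With 1 library left out, these named genes turned sign at one end of their range of log2 fold changes, none of them called: Rps27l -0.19 to 0.047, Rpl22l1 -0.38 to 0.20, Rpl9 -0.041 to 0.015, Rps14 -0.12 to 0.11, Rplp1 -3.39e-06 to 0.27, Rpl3 -0.060 to 0.24, Rpl7 -0.023 to 0.11, Rpl10 -0.032 to 0.15, Rps4x -0.069 to 0.15, Rplp0 -0.0054 to 0.20, Rplp2 -0.10 to 0.20, Rpl5 -0.011 to 0.25, Rps6 -0.011 to 0.20, Rps3 -0.028 to 0.057, Rpl10a -0.030 to 0.19, Rps25 -0.037 to 0.13, Rpl38 -0.033 to 0.11 and Rpsa -0.017 to 0.20. Of the 33 named ribosomal protein genes, 12 changed sign without HFD-KO replicate 2, 3 without HFD-KO replicate 1, 5 without HFD-WT replicate 1 and 2 without HFD-WT replicate 2.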
